A study of Drosophila melanogaster with 6 samples.

Results

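The genes described here are 10 components and repressors of the Drosophila JAK-STAT pathway, namely dome, hop, Stat92E, et, Socs36E, Ptp61F, Su(var)2-10, chinmo, ken and zfh1. Members were the array probe sets that the platform annotation assigns to 1 of these genes and to no other gene, with every such probe set kept. The rule gave 13 probe sets of 8 genes, out of 14010 probe sets deposited and 10844 genes measured. The genes hop and Socs36E, which encode the kinase and a feedback inhibitor, had no probe set under that rule and are not analysed here. The study compared germline stem cells purified from ovaries of bam mutant flies (GSC, 3 arrays) with Kc cells, an established somatic line of embryonic origin kept in tissue culture (Kc, 3 arrays). Loss of bam blocks germ cell differentiation, so stem-like germ cells accumulate, and the labels name neither the allele nor the age of the flies. The design also lists stem cells from ovaries overexpressing Dpp, and these were not analysed here, nor was any ovary with intact bam. Higher and lower therefore mean relative to Kc.

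In the fly JAK-STAT pathway, secreted Unpaired ligands bind the receptor Dome, the associated kinase Hop is activated, and the phosphorylated transcription factor Stat92E enters the nucleus. Several layers of inhibitors act on it: a short receptor (et), SOCS proteins, a tyrosine phosphatase (Ptp61F) and a SUMO ligase of the PIAS family (Su(var)2-10). In the testis the pathway keeps germline and somatic stem cells attached to or near the hub. In the ovary it acts in somatic cells, among them follicle cells and the niche and escort cells around the stem cells. The repressors chinmo and zfh1 are pathway targets in somatic stem cells of the testis, and the repressor Ken can occupy a subset of the DNA sites that Stat92E recognises.

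Array signals were deposited on a scale on which every array had a mean of 500 once the top and bottom 2% of its values were set aside. Array medians ran from 148.5 to 176.5. The 8 control probe sets for mouse and yeast transcripts, a reference level chosen after the data were seen, had signals of 3.2 to 121.3 with a median of 22.75. Germ cell markers were brighter in GSC in 7 of 8 cases, the exception being bam, with summed signals of 30789 to 34165 on GSC arrays and 935.2 to 1301.5 on Kc arrays. Of 6 hemocyte markers 4 were lower in GSC and none higher, with summed signals of 175.7 to 306.6 in GSC and 21609 to 22640 in Kc, and Hml reached no more than 18.7 in GSC. Of 10 eggshell and yolk genes of follicle cells, 5 were higher in GSC, 0 lower and 5 neither. Their summed signals were 3301.8 to 3905.3 in GSC and 841.1 to 1235.4 in Kc. Of 14 markers of ovarian niche, escort and follicle cells, 1 was higher and 0 lower. The part of such cells in the differences given here was not tested. For actin, the signal at the 3′ end over that at the 5′ end was 4.58 ± 0.313 in GSC and 1.85 ± 0.0789 in Kc (SD, n = 3 per group). A two-sided exact permutation test gave p = 0.1, the lowest value possible with 3 arrays against 3. It was also higher in GSC for GAPDH and eIF-4a. This measure of RNA integrity and labelling length moves with every comparison given here. Its part in the results was not tested.

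Fewer expressing cells and less RNA per cell cannot be told apart in such pooled RNA. Whether the arrays of a group stem from independent dissections or cultures is not in the labels, so the p-values cover only the spread among these samples, which may be technical. A probe set was called when its adjusted p by limma, over all 13966 tested probe sets, was under 0.05 and its fold at least 2. Fold changes are on a log2(signal + 38) scale.

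Of the 13 probe sets, 4 were higher in GSC, 2 were lower and 7 passed neither way. Over all probe sets tested the same rule called 19.8%, with 11.7% higher and 8.11% lower. The probe sets called higher belonged to dome, Ptp61F, Su(var)2-10 and ken, and those called lower to et and zfh1. Stat92E and chinmo had no called probe set. The median log2 fold of the 13 was 0.36, against 0.025 over all probe sets tested. The median of the absolute log2 folds was 0.72, against 0.42 over all. These comparisons were not matched for brightness. With dim probe sets left out, the rule called 26.2% of the 10474 that stayed. The groups did not overlap for 8 of the 13, GSC being the brighter in 6 and the dimmer in 2, where 25.7% and 19.7% of all probe sets did so (45.4% together).

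**Figure D1:**
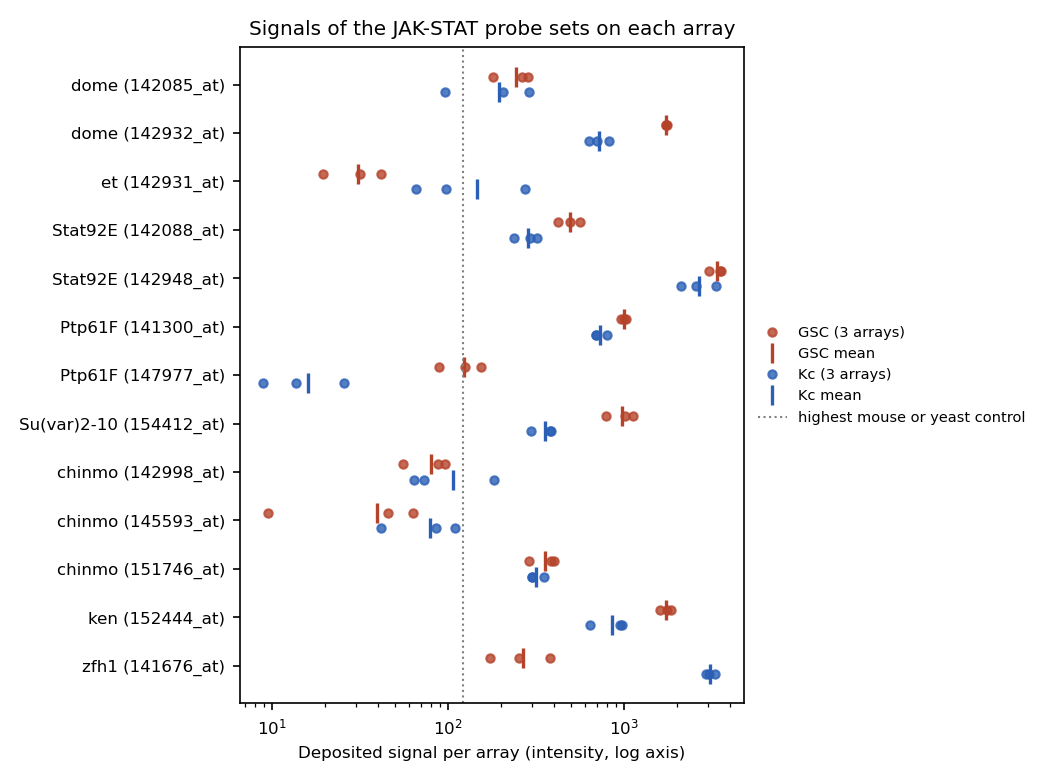
Deposited signal (intensity, log axis) of each of the 13 probe sets on each array, GSC in red and Kc in blue, with 1 point per array and a vertical tick at the group mean; the dotted line marks the brightest mouse or yeast control, at 121.3. The Kc points of zfh1 lie far to the right of its GSC points, the GSC points of the brighter dome probe set, of Su(var)2-10 and of ken lie to the right of their Kc points, and the groups overlap for all 3 chinmo probe sets.

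The receptor gene dome was brighter in GSC by 1 of its 2 probe sets. Probe set 142932_at gave 1725.6, 1736.8 and 1767.3 in GSC and 705.9, 630 and 826 in Kc. The GSC arrays were close together, with a coefficient of variation of 1.24%, and well above every Kc array. The group means were 1743 ± 21.6 and 721 ± 98.8 (SD, n = 3 each), and the log2 fold was 1.24 ± 0.128 (SE, adjusted p = 4.51e-05). The call held under all 15 alternative settings, with log2 folds of 1.12 to 1.68.

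The second dome probe set, 142085_at, had 180.4, 285.4 and 264.4 in GSC and 287.4, 95.8 and 204.7 in Kc. Here the groups overlapped, with the brightest and the dimmest array both from Kc. Its log2 fold was 0.34 ± 0.332 (adjusted p = 0.506), and it was -0.018 without Kc 2, the array with the low value. Within an array, the brighter dome probe set exceeded the dimmer by 2.68 ± 0.293 on the log2 scale in GSC and by 1.78 ± 0.565 in Kc (SD over 3 arrays per group; two-sided p = 0.1 by an exact permutation test, the lowest possible, and 0.25 adjusted over the 5 pairs of probe sets of 1 gene). These within-array differences did not overlap between the groups, and a test of 3 arrays against 3 cannot reach 0.05.

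The gene et, also called eye transformer, encodes a receptor related to Dome that lacks its signalling part and dampens the pathway. In the RefSeq gene table (assembly Release 6 plus ISO1 MT) et and dome are both on chromosome X, with 0 annotated genes between their start positions. Its probe set 142931_at had signals of 41.7, 19.4 and 31.4 in GSC and 97.5, 65.4 and 272.7 in Kc. All 3 GSC values were below all Kc values, but they were within the range of the mouse and yeast controls, as were 2 of the 3 Kc values. Kc 3 stood apart from the other 2 Kc arrays. The log2 fold was -1.26 ± 0.42 (adjusted p = 0.0432). This call was the least stable of the 6. It was lost without any 1 of the 6 arrays except Kc 2, and the log2 fold was -0.80 without Kc 3 (adjusted p = 0.11). The adjusted p ran from 0.0226 to 0.129 over the 15 alternatives, 9 of which lost the call.

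The transcription factor gene Stat92E was bright in both kinds of cells and not called. Probe set 142948_at had 3585.3, 3522.8 and 3054.6 in GSC against 2114.8, 3321.9 and 2562.9 in Kc. Kc 2 lay above GSC 3, so the groups overlapped, and the log2 fold was 0.36 ± 0.157 (adjusted p = 0.113). The other probe set, 142088_at, had 558.8, 420.5 and 491.7 in GSC against 237.9, 293.5 and 319.3 in Kc. Every GSC array of that probe set lay above every Kc array. Its log2 fold of 0.72 ± 0.18 had an adjusted p of 0.0112 but was below the fold minimum. It passed the minimum with arrays scaled to the hybridisation controls (1.13, adjusted p = 0.00858; over all alternatives the adjusted p ran from 0.00684 to 0.046), a scaling that raised the log2 fold of the median probe set on the array from 0.025 to 0.32. Both probe sets had positive log2 folds under all 15 alternatives.

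Among the inhibitors, Su(var)2-10 was higher in GSC. This gene encodes the fly PIAS protein, a SUMO ligase that inhibits Stat92E and also acts in chromosome structure. Probe set 154412_at had 1126.3, 1012 and 786.5 in GSC and 385.7, 381.9 and 296.9 in Kc. The dimmest GSC array was still above the brightest Kc array by more than the range of the Kc arrays. The means were 975 ± 173 and 355 ± 50.2 (SD, n = 3 each), with a log2 fold of 1.36 ± 0.174 (adjusted p = 0.000203). The call held under all 15 alternatives, with log2 folds of 1.13 to 1.78.

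Ptp61F encodes a non-receptor tyrosine phosphatase that acts against Hop and Stat92E, and its 2 probe sets were both brighter in GSC, with 1 of them called. Probe set 141300_at had 995.3, 1021.5 and 968.3 in GSC and 804.7, 694.5 and 689.4 in Kc. The groups did not overlap, and the spread within each was small. The log2 fold was 0.43 ± 0.123 (adjusted p = 0.0212), below the fold minimum. Probe set 147977_at had 124.8, 154.3 and 89.1 in GSC and 8.8, 25.6 and 13.6 in Kc. Its Kc signals lay at the level of the mouse and yeast controls, and only 2 of its 3 GSC signals exceeded the brightest of these controls. The log2 fold was 1.57 ± 0.298 (adjusted p = 0.0023), and it depended on the pseudocount: it was 2.95 with a pseudocount of 1 and 0.67, no longer called, with the pseudocount at the median of all values. The within-array difference between the probe sets was 2.70 ± 0.264 on the log2 scale in GSC and 3.84 ± 0.323 in Kc (SD over 3 arrays per group; two-sided p = 0.1 by an exact permutation test, 0.25 adjusted over the 5 pairs).

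The repressor gene with the largest difference was zfh1, which encodes a protein with zinc fingers and a homeodomain. Probe set 141676_at had 379.1, 252 and 172.3 in GSC and 3294.6, 2919.4 and 3033.4 in Kc. The Kc arrays were close together and all far above the GSC arrays, which were themselves all above the brightest mouse or yeast control. Means were 268 ± 104 and 3082 ± 192 (SD, n = 3 each), and the log2 fold was -3.41 ± 0.22 (adjusted p = 2.38e-06), a 10.6-fold difference on the scale of the fit. Its log2 fold stayed between -3.66 and -2.94 over the 15 alternatives, all of which called it. Hemocytes of the embryo and larva are also known to express zfh1, and the hemocyte markers given above moved the same way; their part in this difference was not tested. Of 14 markers of ovarian niche, escort and follicle cells, 0 were lower in GSC and 1, peb, was higher. Their summed signals were 1107.7 to 1307.9 in GSC and 1013 to 1352.1 in Kc, with tj at 18.9 to 27.2 in GSC. The brightest of them in GSC, bab1, had 282.6 to 372.6 there and 224 to 275.6 in Kc. Of the 10 eggshell and yolk genes of follicle cells, 5 were higher in GSC, 0 lower and 5 neither. The part of either list in the zfh1 signal was not tested.

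The gene ken encodes a zinc finger repressor with a BTB domain. Its probe set 152444_at had 1604.8, 1846.7 and 1749.1 in GSC and 643, 976.4 and 952.4 in Kc. The groups did not overlap, GSC being the brighter, and Kc 1 was the dimmest array. The means were 1734 ± 122 and 857 ± 186 (SD, n = 3 each). The log2 fold of 1.01 ± 0.165 (adjusted p = 0.000959) sat just over the fold minimum. The adjusted p stayed under 0.05 in all 15 alternatives, between 0.000166 and 0.0188, but in 6 of them the log2 fold was below the minimum. These included leaving out Kc 1 (0.82), GSC 2 (0.96) or GSC 3 (1.00, just under the minimum).

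The 3 probe sets of chinmo, a BTB and zinc finger repressor that keeps stem cell fate and male identity in somatic cells of the testis, were not called. The brightest, 151746_at, had 401.4, 287.9 and 383.7 in GSC and 301.8, 350.2 and 299.7 in Kc. Its groups overlapped, with GSC 2 the dimmest of all 6 arrays, and the log2 fold was 0.15 ± 0.183 (adjusted p = 0.614). For 142998_at the signals were 87.3, 55.2 and 96.4 against 72.7, 181.9 and 64.2, and the log2 fold was -0.22 ± 0.363 (adjusted p = 0.709). Probe set 145593_at had 9.4, 45.5 and 62.9 against 41.7, 85.8 and 109.6, a log2 fold of -0.62 ± 0.379 (adjusted p = 0.259). Apart from 1 Kc value of 142998_at, both dim probe sets lay within the range of the mouse and yeast controls, so they say little about a difference in chinmo.

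**Figure D2:**
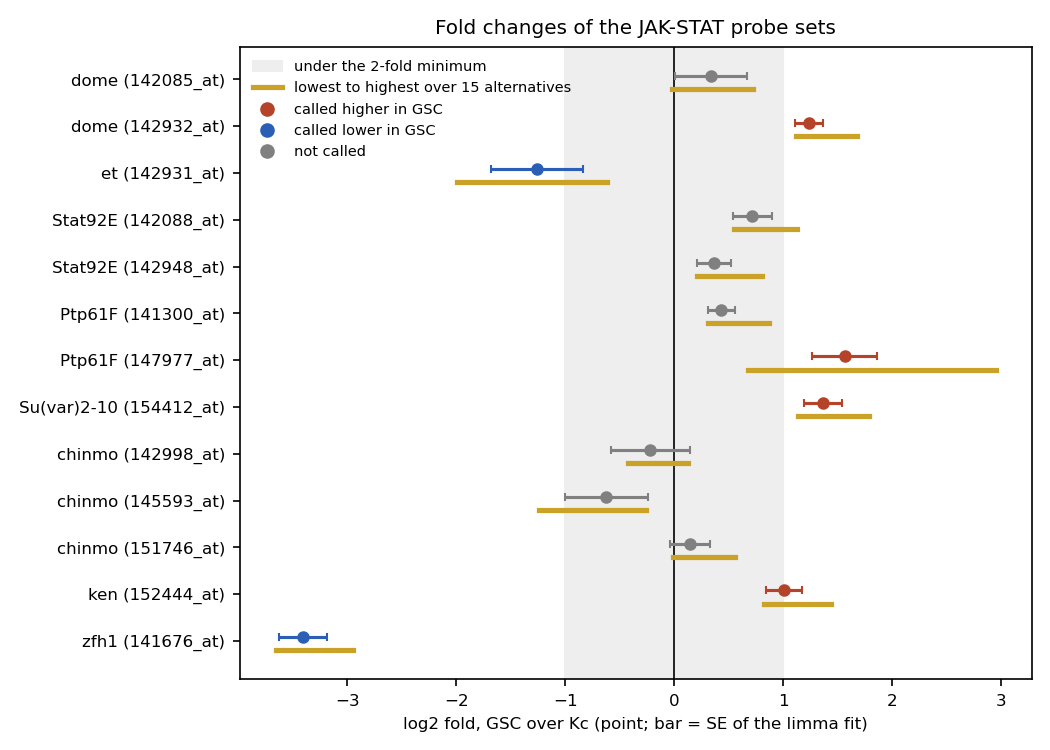
Log2 fold of GSC over Kc for the 13 probe sets (point, with the SE of the limma fit as a bar) and, under each, the lowest to highest value over 15 alternative settings (yellow bar); red points are called higher in GSC, blue ones lower, grey ones neither, and the shaded band marks folds under 2. The bars of zfh1, Su(var)2-10 and the brighter dome probe set stay outside the band, and those of et, ken and the dimmer Ptp61F probe set reach into it.

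Across the array, the probe sets whose log2 signals followed zfh1 most closely over the 6 arrays were those of cysu, CG12730 and Drat (Pearson r of 0.999 each). Drat had a log2 fold of -4.26, CG12730 of -2.21 and cysu of -1.40. For Ptp61F probe set 147977_at they were mtTFB2, Stim and rhea (r of 0.998, 0.997 and 0.997), with log2 folds of 0.89, 0.83 and 1.24. That probe set had the largest log2 fold upward with the pseudocount of 38, but its Kc signals were at control level, and with the pseudocount at the median it was below Su(var)2-10 (1.13), dome 142932_at (1.12) and ken (0.91). These are descriptions over 6 arrays in 2 groups. Such values are common here, since 103 probe sets of other genes had an r above 0.99 with zfh1 and 33 with the Ptp61F probe set.

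A list of 37 other genes of the pathway held 24 measured genes, each read from its brightest probe set by mean log2 signal. Of these, 1 was higher in GSC, 3 were lower and 20 passed neither way, where 12.5% of all 10844 genes were higher and 8.02% lower (20.5% together). Their median log2 fold was 0.04.

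Both measured ligand genes were dim on every array. The signal of upd1 was 8.7, 9.5 and 22.8 in GSC and 15.8, 20.6 and 34.3 in Kc (log2 fold -0.25 ± 0.19, adjusted p = 0.371). For upd2 it was 7.3, 6.1 and 7.1 in GSC and 11.2, 18 and 10.4 in Kc (log2 fold -0.19 ± 0.127, adjusted p = 0.309). Between groups, values overlapped for upd1 but not for upd2. All 12 values were within the range of the mouse and yeast controls, so they say little about a difference in these ligands.

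The 2 measured SOCS family genes had log2 folds of opposite sign. Socs44A, which encodes a protein related to the feedback inhibitor Socs36E, had 145.4, 90.4 and 210.4 in GSC and 521.9, 471.5 and 293.6 in Kc. Its groups did not overlap, and the log2 fold was -1.34 ± 0.294 (adjusted p = 0.00553). The call was lost with the pseudocount at the median (-0.92), with a floor in place of the pseudocount (adjusted p = 0.0518) and with scaling to the hybridisation controls (-0.95). Over all alternatives its adjusted p ran from 0.00268 to 0.0518. Socs16D had 474.8, 476.8 and 494 in GSC against 273.2, 333.5 and 265.8 in Kc, a log2 fold of 0.67 ± 0.16 (adjusted p = 0.00874) that was below the fold minimum.

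Of the 9 regulators of receptor or STAT activity 0 were called, with log2 folds from -0.62 to 0.91, positive for 7 of them, where 53.2% of all genes had a positive one. The sign depended on the probe set for mask, BRWD3 and E(bx). For E(bx), named after its values were seen, it was -0.25 by the brightest probe set and 0.67 and -0.63 by the others. For 5 of the 9 the adjusted p was under 0.05, as it was for 36.3% of all genes with no fold minimum. The 5 included mask, whose log2 fold was negative. With probe sets of a gene averaged, only Sumo (adjusted p = 0.000151) and Hrs (adjusted p = 0.0124) of the 9 stayed under 0.05. Sumo and Hrs have 1 probe set each, so averaging left their log2 folds unchanged and is no check on them. Both were named after their values were seen. The largest log2 fold by brightest probe set was that of BRWD3, a bromodomain and WD repeat protein gene that promotes signalling. It had 2136.7, 1978.8 and 1881.1 in GSC and 934.5, 1207.4 and 1010.8 in Kc by probe set 154904_at (log2 fold 0.91 ± 0.127, adjusted p = 0.000338). A dimmer BRWD3 probe set, 150501_at, went the other way without overlap, with 141.9, 72.7 and 126.4 in GSC and 177.8, 244.2 and 193.7 in Kc (log2 fold -0.70 ± 0.272, adjusted p = 0.0758). BRWD3 was named after its values were seen and its brighter probe set passed the fold minimum without Kc 2 (1.01) and with scaling to the hybridisation controls (1.35). With both BRWD3 probe sets averaged, the log2 fold was 0.10 (adjusted p = 0.694).

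Among 11 measured genes listed as targets or effectors, apt was higher in GSC and lin-28 and vir-1 were lower. Whether the pathway acts on these genes in either kind of cell was not tested. The gene apt encodes a nuclear factor that limits Stat92E activity in follicle cells during border cell formation. It had 1235.6, 1291.5 and 1121.9 in GSC and 179.3, 334.8 and 261.2 in Kc. The groups were far apart, with a log2 fold of 2.11 ± 0.199 (adjusted p = 2.68e-05), called under all 15 alternatives. Of 10 eggshell and yolk genes of follicle cells, 5 were higher in GSC, 0 lower and 5 neither. Their summed signals were 3301.8 to 3905.3 in GSC and 841.1 to 1235.4 in Kc. Of the 14 markers of ovarian niche, escort and follicle cells, 1 was higher, 0 lower and 13 neither. Those summed to 1107.7 to 1307.9 in GSC and 1013 to 1352.1 in Kc. The part of either list in the difference of apt was not tested.

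The RNA-binding protein gene lin-28, which blocks maturation of the let-7 microRNA in many animals, had 45.2, 21.9 and 11.7 in GSC and 1088.3, 857.1 and 935.3 in Kc. The GSC signals were at the level of the mouse and yeast controls, and the log2 fold was -3.98 ± 0.245 (adjusted p = 1.79e-06), called under all 15 alternatives. Its size depended on the pseudocount, with -5.33 at a pseudocount of 1 and -2.58 at the median of all values. The virus-induced gene vir-1, a readout of JAK-STAT activity in infected flies, had 21.5, 48.8 and 33 in GSC and 156.2, 196.8 and 154.2 in Kc by probe set 151839_at (log2 fold -1.53 ± 0.289, adjusted p = 0.00225). All Kc values were above the brightest mouse or yeast control and all GSC values below it. A dimmer probe set of vir-1, 146285_at, overlapped between groups and was not called (-0.16). The vir-1 call was lost with the pseudocount at the median (-0.75; it was -2.33 with a pseudocount of 1) and with the mean over both probe sets (-0.85, adjusted p = 0.0266; over the 15 alternatives the adjusted p of 151839_at ran from 0.000957 to 0.0187).

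The other 8 genes listed as targets or effectors were not called, with log2 folds from -0.63 to 0.59. Of these, 3 were below the brightest mouse or yeast control on every array. The thioester protein gene Tep4 had the lowest (-0.63 ± 0.127, adjusted p = 0.00337) and the cyclin gene CycD the highest (0.59 ± 0.13, adjusted p = 0.00555), both named after their values were seen. Cdk4, the kinase partner of cyclin D, had 0.36 ± 0.132 (adjusted p = 0.0613).

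**Figure D3:**
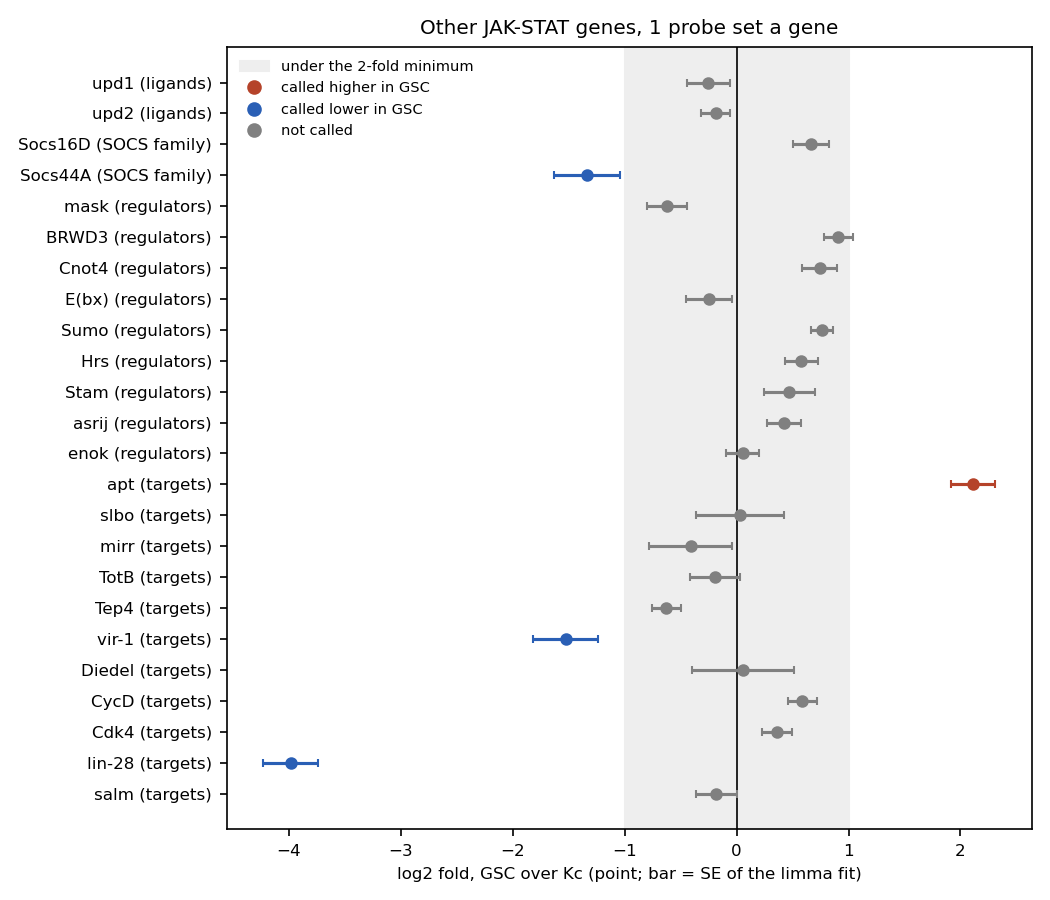
Log2 fold of GSC over Kc for the 24 other measured genes of the pathway, 1 probe set a gene (point, with the SE of the limma fit as a bar), ordered as ligands, SOCS family, regulators and targets; red is called higher in GSC, blue lower, grey neither, and the shaded band marks folds under 2. Only apt lies called to the right of the band, and Socs44A, vir-1 and lin-28 lie called to its left.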

How the data were processed

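The values deposited by the authors are linear intensities, 1 for each probe set on each array, and the submitters' processing notes name MAS5. Its version is not given in the sources used here, and no detection calls were used. Every column belonged to a sample (0 had none). The trimmed array means, 500.1 on each array, showed a global scaling, so no second normalization was applied. Without the 44 controls of the array, 13966 probe sets were tested. Of these, 12443 had 1 gene symbol, 327 several and 1196 none, and the gene identifiers of 12394 were found in the RefSeq table, which changed 0 symbols.

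Signals were taken as log2(signal + 38), 38 being the 25th percentile of all values, and fold changes of dim probe sets are understated on this scale. GSC and Kc were compared two-sided with lmFit and eBayes (trend, robust) of limma 3.58.1 in R 4.3.3, with Benjamini-Hochberg adjustment over all 13966 probe sets. All probe sets of members were named. Of the other pathway genes, the called ones and the measured ligands were named, plus genes said to be chosen later. Socs16D and Cdk4, neither of them called, were named outside that rule. For the member with the largest fold in each direction at this pseudocount, 3 genes of most similar pattern were named. Members, lists and rules were chosen with earlier results of these data known. The number of arrays limits the precision. Sequences were not used here.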

Additional observations from a re-analysis of the deposited data

How the results depend on the processing

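Counts of called probe sets were recomputed under 15 alternative settings and 2 other fold minimums, and for the other pathway genes also with probe sets of a gene averaged. The 4 member probe sets called higher became 2 with the pseudocount at the median, 3 with quantile normalization or median scaling, 5 with hybridisation control scaling or a fold minimum of 1.5, and 6 with no fold minimum. The 2 called lower became 1, the et call being lost, with the pseudocount at the median, a floor in place of the pseudocount, hybridisation control scaling, or a variance prior with neither trend nor robust estimation. Leaving out 1 array at a time gave 3 to 4 called higher and 1 to 2 called lower. Of the other pathway genes, the 1 called higher became 2 with quantile normalization, 7 with hybridisation control scaling, 7 with no fold minimum and 6 with a fold minimum of 1.5, and was 1 to 2 without 1 array (2 without Kc 2, which added BRWD3). The 3 called lower became 1 with the pseudocount at the median, 2 with a floor, with hybridisation control scaling or with probe sets averaged, 5 with no fold minimum and 5 with a fold minimum of 1.5, and were 3 without any 1 array. The split of all calls was 59.1% higher, and 80.4% with hybridisation control scaling, where the median probe set had a log2 fold of 0.32. All probe sets called numbered 2765, and 1691 with the pseudocount at the median. Single folds were recomputed for the 13 member probe sets and for 12 other pathway genes, not for other named genes, and among these signs changed only for uncalled values: chinmo 151746_at with quantile normalization (-0.0098), chinmo 142998_at with hybridisation control scaling (0.092) and without Kc 2 (0.13, in a range of -0.42 to 0.13 over the 6 arrays left out), and dome 142085_at without Kc 2 (-0.018, in a range of -0.018 to 0.62). The cause of these changes was not tested. The floor gave no value for upd1 and upd2, which lay under it on all arrays.

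In the labels, same-numbered GSC and Kc arrays share only a number. Their deviations from the group means correlated at -0.03, 0.036 and -0.0071, which does not show whether such arrays were processed together. With the replicate number as a block, 4 member probe sets were called higher and 2 lower, and 1 and 3 other pathway genes, as without it. What signals at the level of the mouse and yeast controls allow is limited for et, lin-28, vir-1, upd1, upd2, the dimmer chinmo probe sets and Ptp61F 147977_at. Single values also lay below the brightest of these controls for dome 142085_at (95.8 in Kc 2) and Socs44A (90.4 in GSC 2). The same was so for BRWD3 150501_at (72.7 in GSC 2) and mask 151749_at (73.9 in Kc 1).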

Other observations

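The gene mask, which encodes a large ankyrin repeat protein that promotes signalling through the receptor, was covered by 4 probe sets that did not move alike. The brightest, 143004_at, had 578.7, 769.2 and 834.3 in GSC and 1348.8, 916.9 and 1153.9 in Kc (log2 fold -0.62 ± 0.181, adjusted p = 0.0239). Probe set 151749_at had 372.6, 262 and 270.7 in GSC and 73.9, 178 and 175.9 in Kc (log2 fold 0.96 ± 0.297, adjusted p = 0.0315). In both the groups did not overlap, in opposite directions, and neither passed the fold minimum. The other two had log2 folds of -0.64 and 0.27. The difference between these probe sets was not tested, and they were picked after their values were seen.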
